A study of Arabidopsis thaliana with 24 samples.

Results

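Photorespiration is the salvage pathway that recycles phosphoglycolate, the product formed when Rubisco fixes oxygen in place of carbon dioxide. Its steps run through chloroplast, peroxisome and mitochondrion. Glycolate is oxidised to glyoxylate in the peroxisome and aminated to glycine, glycine is turned into serine in the mitochondrion, and serine returns to the peroxisome to be reduced to glycerate. In leaves the pathway is active in light, and its genes are known for their expression in green tissue.

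The levels of 10 enzyme loci of this pathway were followed in 24 Arabidopsis arrays. The loci were taken by their identifiers, not by any measured value. Of the 10 loci, 9 were found, each as 1 row among 30386 gene features: the glycolate oxidases GOX1 (AT3G14420) and GOX2 (AT3G14415), the catalase CAT2 (AT4G35090), the aminotransferases GGAT1 (AT1G23310) and AGT1 (AT2G13360), the glycine decarboxylase subunits GLDP1 (AT4G33010) and GLDT (AT1G11860), the serine hydroxymethyltransferase SHM1 (AT4G37930) and the hydroxypyruvate reductase HPR1 (AT1G68010). The tenth locus, PGLP1 (AT5G36790), which encodes phosphoglycolate phosphatase, the entry step, matched no row in the table used here and was not analysed. The identifiers place GOX1 and GOX2 on the plus strand of chromosome 3, GGAT1 and GLDT on chromosome 1 (minus and plus strand), HPR1 on the plus strand of chromosome 1, AGT1 on the minus strand of chromosome 2, and CAT2, GLDP1 and SHM1 on the minus strand of chromosome 4. GOX1 and GOX2 are neighbouring genes of near-identical sequence, so probes could respond to both, and their separate values are uncertain to that extent.

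Wild-type seedlings (Col-0) were grown in liquid culture in constant light and then kept for 6 h with 150 mM sorbitol, the osmotic control, or 150 mM sucrose. The flasks stayed in light or were wrapped in foil. The 4 treatments were thus light with sorbitol, light with sucrose, darkness with sorbitol and darkness with sucrose, with 3 cultures each (numbered 7, 8 and 9). The age of the seedlings is 7 days in the sample labels and 10 days in the methods text. From each culture, total RNA and the messages of the small polysomes, which carry few ribosomes each, were hybridised, which gave 8 groups of 3 arrays. Whole seedlings, with shoots and roots, were extracted.

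Array medians lay between 5.92 and 6.06 on the log2 scale, and any 2 arrays correlated at 0.906 to 0.993. Member values lay between 8.44 and 13.31, and the member with the lowest mean stood at the 96th percentile of all features. Among markers, the mean of 6 green-tissue genes (RBCS1A, RCA, CAB1, LHCB3, LHCA1, LHB1B1) in total RNA was 11.34 to 11.77 in light with sorbitol and 10.01 to 10.69 in light with sucrose. In darkness it was 11.09 to 11.39 with sorbitol and 10.27 to 10.53 with sucrose. The mean of 7 root genes (PYK10, EXPA7, PRP3, CASP1, NRT2.1, LRX1, COBL9) was 6.96 to 7.58 and 7.47 to 8.10 in light, and 6.89 to 7.19 and 7.23 to 7.57 in darkness. Of the root genes, 2 rose and CASP1 fell after sucrose in light, and 3 rose and CASP1 fell in darkness. With the culture number as a block in the fit, 5 and 4 rose, and PYK10 fell beside CASP1 in both. Over all features, without the block, 15.7% rose and 12.8% fell in light, and 15.5% rose and 16.2% fell in darkness. RBCS1A and RCA also stand in the list of Calvin-Benson genes used below. The mean of 3 seed storage genes (SESA1, CRA1, CRU3) lay between 5.55 and 6.13 in total RNA, and none of the 3 passed the test after sucrose.

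**Figure D1:**
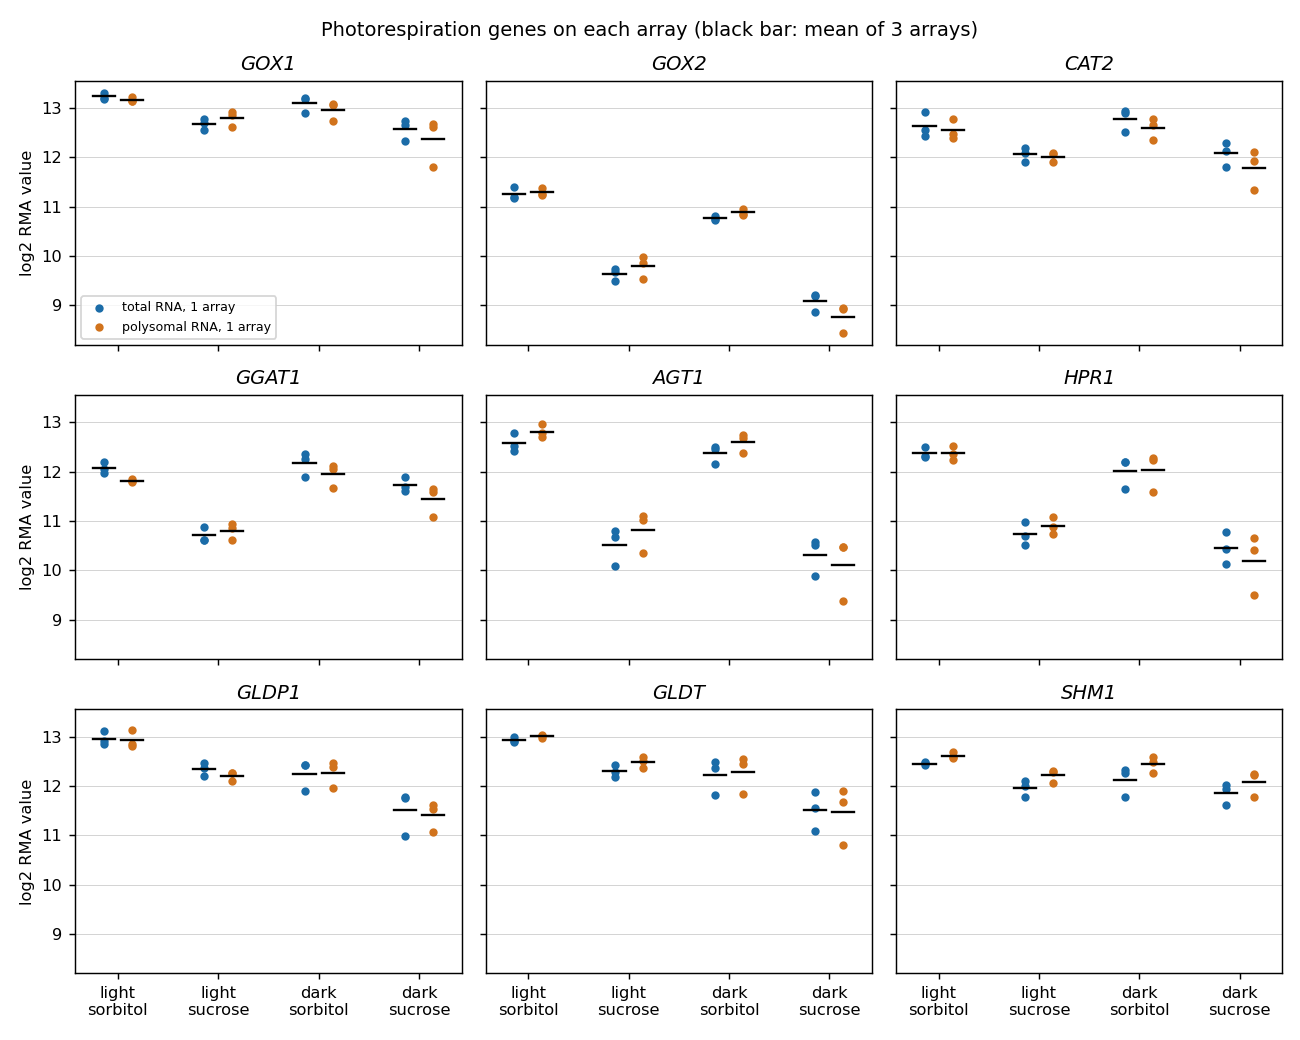
Level of each of the 9 enzymes on every array (log2 RMA value, vertical axis) by treatment (horizontal axis), in total RNA (blue) and polysomal RNA (orange). Points are single arrays and black bars the mean of 3. All sorbitol arrays in light lie above all sucrose arrays in light in every panel, and GGAT1 in darkness with sucrose lies between the light sucrose and the light sorbitol arrays.

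After sucrose in light, all 9 enzyme messages were lower in total RNA than with sorbitol. A gene is said to have risen or fallen where its adjusted p was under 0.05, and to be called where the change was also more than 2-fold. Of the 9, 8 fell, against 12.8% of all features that fell, and 4 were called (AGT1, HPR1, GOX2 and GGAT1), against 4.63% of all features. The median change was -0.63 on the log2 scale, a 1.55-fold lower level, beside 0.02 over all features. The levels with sorbitol and with sucrose did not overlap for any of the 9, as was the case for 18.3% of all features in this direction. The green-tissue markers moved with this result, with 5 of 6 falling (6 with the culture number as a block) and a median of -0.90, and their part in it was not tested. In such bulk samples, fewer green cells and less RNA per green cell cannot be told apart.

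AGT1, the peroxisomal serine:glyoxylate aminotransferase, showed the largest fall of the 9. In total RNA it stood at 12.53, 12.79 and 12.43 in light with sorbitol (cultures 7, 8 and 9) and at 10.68, 10.80 and 10.08 in light with sucrose. In darkness it stood at 12.50, 12.46 and 12.16 with sorbitol and at 10.51, 10.57 and 9.88 with sucrose. The sugar split these arrays into a high and a low set that lay more than 1 log2 unit apart, while light and dark arrays of 1 sugar overlapped. The change after sucrose was -2.06 ± 0.27 (log2, SE, n = 3 against 3; adjusted p = 5.56e-06) in light and -2.06 ± 0.27 (adjusted p = 4.04e-06) in darkness. AGT1 was thus 4.17-fold lower under both conditions, and the difference between them was 0.00 with a 95% interval from -0.79 to 0.79.

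HPR1, which reduces hydroxypyruvate to glycerate in the peroxisome, behaved alike. Its total RNA values were 12.32, 12.51 and 12.29 in light with sorbitol and 10.70, 10.98 and 10.52 in light with sucrose. In darkness they were 12.20, 12.20 and 11.64 with sorbitol and 10.44, 10.77 and 10.13 with sucrose. Each sucrose array lay below each sorbitol array. HPR1 fell by 1.64 ± 0.25 in light (3.12-fold lower, adjusted p = 3.43e-05) and by 1.57 ± 0.25 in darkness (2.96-fold lower, adjusted p = 4.54e-05).

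GOX2 encodes one of the glycolate oxidases, which produce glyoxylate and hydrogen peroxide. Its total RNA values were 11.20, 11.39 and 11.18 in light with sorbitol and 9.50, 9.68 and 9.75 in light with sucrose. In darkness they were 10.73, 10.82 and 10.74 with sorbitol and 9.21, 9.19 and 8.87 with sucrose. In contrast to AGT1, the 4 treatments formed 4 steps without overlap, with darkness below light for either sugar. GOX2 fell after sucrose by 1.62 ± 0.14 in light (3.06-fold lower, adjusted p = 3.25e-08) and by 1.67 ± 0.14 in darkness (3.19-fold lower, adjusted p = 9.16e-09). Its neighbour GOX1 changed less, with -0.56 ± 0.18 in light (adjusted p = 0.0193) and -0.53 ± 0.18 in darkness (adjusted p = 0.0256). The 95% intervals of the 2 genes did not overlap in light (GOX1 from -0.93 to -0.20, GOX2 from -1.90 to -1.33) or in darkness (GOX1 from -0.89 to -0.16, GOX2 from -1.96 to -1.39).

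GGAT1, the glutamate:glyoxylate aminotransferase that feeds glycine formation, fell strongly after sucrose only where the light stayed on. In light it stood at 12.06, 12.19 and 11.97 with sorbitol and at 10.62, 10.88 and 10.62 with sucrose. In darkness it stood at 12.37, 12.26 and 11.88 with sorbitol and at 11.69, 11.89 and 11.61 with sucrose. The dark sucrose values lay above all light sucrose values, lay below all light sorbitol values, and overlapped with the lowest dark sorbitol value. The change was -1.37 ± 0.16 in light (2.58-fold lower, adjusted p = 1.54e-06) and -0.44 ± 0.16 in darkness (1.35-fold lower, adjusted p = 0.0425). The 2 changes differed by 0.93 ± 0.23 (95% interval 0.46 to 1.40, adjusted p = 0.0127), with the dark change above the light change in all 3 cultures (0.76, 0.95 and 1.08). GGAT1 was the 1 member whose sucrose change in total RNA depended on light by this test, and 8.94% of all features did. Without culture 7 or without culture 8 the difference was 1.02 (adjusted p = 0.187) and 0.92 (adjusted p = 0.199). In those fits 397 and 335 of all features passed, in place of 2716.

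The remaining 4 enzymes changed by less than 2-fold after sucrose. CAT2, the catalase that removes the hydrogen peroxide made by glycolate oxidase, fell by 0.57 ± 0.19 in light (adjusted p = 0.0270) and by 0.70 ± 0.19 in darkness (adjusted p = 0.00640). GLDP1, the glycine-binding P-protein of glycine decarboxylase, fell by 0.62 ± 0.20 in light (adjusted p = 0.0238) and by 0.73 ± 0.20 in darkness (adjusted p = 0.00712). GLDT, the T-protein of the same complex, stood at -0.63 ± 0.24 in light, which did not pass (adjusted p = 0.0586; 0.00778 with the culture number as a block), and fell by 0.71 ± 0.24 in darkness (adjusted p = 0.0289). SHM1, the mitochondrial enzyme that makes serine from glycine, fell by 0.50 ± 0.15 in light (adjusted p = 0.0166). In darkness its change of -0.26 ± 0.15 did not pass (adjusted p = 0.217; 0.0431 with the block).

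In darkness, 8 of the 9 enzymes fell after sucrose in total RNA, against 16.2% of all features, and 3 were called (AGT1, HPR1 and GOX2), against 5.62%. The median was -0.71, beside 0.00 over all features. All 9 changes were negative in each of the 3 cultures, in light and in darkness. Of the green markers, 3 of 6 fell in darkness, with a median of -0.63, and all 6 with the block. The number that passed the test depended on the arrays and the scaling. Without culture 7 or without culture 8, 4 enzymes fell in light, and 3 or 4 in darkness. Fewer of all features passed too, with 4742 or 4744 in place of 8652 in light. In darkness 5975 or 6121 passed in place of 9646. Quantile normalization left 4 enzymes in light and 6 in darkness, while 9036 and 10244 of all features passed. A fit to only the arrays compared left 4 enzymes in darkness and gave 9 in light, while 7547 and 7700 of all features passed.

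**Figure D2:**
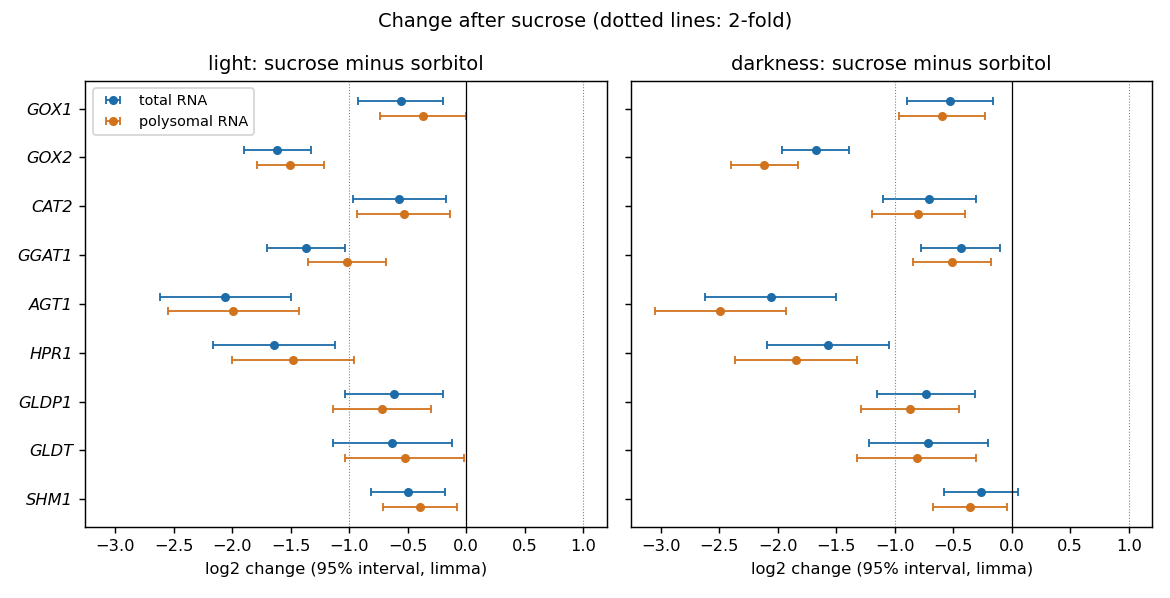
Log2 change after sucrose (horizontal axis, sucrose minus sorbitol) for each enzyme in light (left) and darkness (right), in total (blue) and polysomal (orange) RNA. Points are fitted changes, bars 95% intervals and dotted lines 2-fold. AGT1, HPR1 and GOX2 lie beyond the 2-fold line in both panels, and GGAT1 only in the light panel.

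The same decrease was seen among the messages carried by polysomes. After sucrose in light, 6 of 9 enzymes fell in polysomal RNA, against 12.8% of all features, and 4 were called, against 4.34%. These 4 were AGT1 (-1.99 ± 0.27), GOX2 (-1.50 ± 0.14), HPR1 (-1.48 ± 0.25) and GGAT1 (-1.02 ± 0.16). GOX1, GLDT and SHM1 did not pass (adjusted p = 0.125, 0.115 and 0.0549), and with the culture number as a block all 9 passed. Without culture 7 or without culture 8, 4 enzymes passed, and 5691 or 5381 of all features did, in place of 9496. The green markers gave a median of -0.21 in these polysomal arrays, with 2 of 6 falling.

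In darkness, 8 of 9 enzymes fell in polysomal RNA after sucrose, against 15.1% of all features, and 3 were called, against 5.47%. AGT1 stood at 12.69, 12.73 and 12.38 with sorbitol and at 10.46, 10.48 and 9.38 with sucrose, a change of -2.49 ± 0.27 (5.62-fold lower, adjusted p = 3.57e-07). GOX2 stood at 10.96, 10.84 and 10.86 with sorbitol and at 8.93, 8.95 and 8.44 with sucrose, a change of -2.11 ± 0.14 (4.32-fold lower, adjusted p = 3.98e-10). The sucrose array of culture 9 was the lowest of its group for both genes. It was so for all 9 enzymes, in polysomal as in total RNA, and without culture 9 all 9 passed. HPR1 fell by 1.85 ± 0.25 (3.59-fold lower), GLDP1 by 0.87 ± 0.20, GLDT by 0.81 ± 0.24, CAT2 by 0.80 ± 0.19, GOX1 by 0.59 ± 0.18 and GGAT1 by 0.51 ± 0.16. SHM1 stood at -0.36 ± 0.15 and did not pass (adjusted p = 0.0841; 0.00706 with the culture number as a block). Of the green markers, 5 of 6 fell, with a median of -0.68. Without culture 7 the number of enzymes that fell was 3, and without culture 8 it was 5. Of all features, 5662 and 5709 passed in these fits and 10978 without culture 9, in place of 9535. A fit to only the arrays compared left 5 enzymes that fell, and 7428 of all features passed.

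In polysomal RNA the sucrose change of GOX2 was larger in darkness than in light by 0.61 ± 0.19 (log2 difference -0.61, 95% interval -1.02 to -0.20, adjusted p = 0.0465). It was the 1 member that passed, among 11.5% of all features. The 3 cultures gave -0.32, -0.36 and -1.15, so that culture 9 held most of it, and without culture 9 the difference was -0.34 (adjusted p = 0.246). It did not pass without culture 7 (-0.76, adjusted p = 0.165) or without culture 8 (-0.73, adjusted p = 0.246) either. Of all features, 483 and 450 passed without culture 7 and without culture 8, and 4620 without culture 9, in place of 3507. For GGAT1 the polysomal difference was 0.51 ± 0.23 (adjusted p = 0.170; 0.0288 with the block), with 0.41, 0.50 and 0.61 in the 3 cultures.

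Polysomal occupancy, the polysomal minus the total log2 value of a culture, changed for none of the 9 enzymes past the threshold. After sucrose in light, 0 of 9 passed by limma against 0.359% of all features, and 0 had an unadjusted p under 0.05, against 6.58%. Their changes ranged from -0.10 to 0.35, with a median of 0.10, beside -0.01 over all features. Here 8 of 9 were positive, but under quantile normalization 7 of 9 were negative, so no direction is given. The highest, 0.35 ± 0.23 (95% interval -0.12 to 0.82), was that of GGAT1, with occupancies of -0.26, -0.34 and -0.17 with sorbitol and 0.24, 0.05 and -0.02 with sucrose.

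After sucrose in darkness, again 0 of 9 passed, as did 0 of all 30386 features, and 1 of 9 had an unadjusted p under 0.05, against 4.36%. That was GOX2, with occupancies of 0.23, 0.02 and 0.11 with sorbitol and -0.28, -0.24 and -0.43 with sucrose. The change was -0.44 ± 0.19 (95% interval -0.84 to -0.03), which did not pass after adjustment. All 9 changes were negative, from -0.44 to -0.07, and without culture 9 only 5 of 9 were. Darkness without sucrose also gave 0 of 9 by limma, as it gave 0 of all features, and 0 of 9 at an unadjusted p under 0.05, against 4.2%, with changes from -0.11 to 0.16. The standard errors of these occupancy changes, 0.19 to 0.38, come from a fit that takes the total and polysomal arrays of a culture as independent, although their deviations correlated at 0.211 to 0.598. Within cultures the spread could be smaller. For GOX1 in light the 3 cultures gave 0.21, 0.22 and 0.14, and 5 of 9 enzymes were up in all 3 cultures in the deposited values, without quantile normalization. With culture as a random block, 665 features passed after sucrose in light in place of 109, and still 0 of the 9 enzymes.

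In darkness without sucrose, fewer of the enzymes fell than after sucrose. In total RNA, 2 of 9 fell (GLDP1 and GOX2), against 4.35% of all features, and none was called, against 1.03% that fell past 2-fold. The median was -0.34, beside 0.04 over all features. GLDP1 stood at 12.92, 13.10 and 12.85 in light and at 12.41, 12.41 and 11.89 in darkness, without overlap, a change of -0.72 ± 0.20 (adjusted p = 0.0267). GOX2 changed by -0.49 ± 0.14 (adjusted p = 0.0255). GLDT, with 12.89, 12.99 and 12.90 in light and 12.48, 12.36 and 11.81 in darkness, changed by -0.71 ± 0.24 and did not pass (adjusted p = 0.0713). HPR1 (-0.36 ± 0.25, adjusted p = 0.434) and SHM1 (-0.34 ± 0.15, adjusted p = 0.188) also had no overlap between light and dark arrays and did not pass. In all, the dark arrays lay below the light arrays without overlap for 5 of 9 enzymes, against 11.9% of all features. For AGT1, CAT2, GGAT1 and GOX1 the light and dark arrays overlapped, and their changes lay between -0.20 and 0.15. Without culture 7 or without culture 8 no enzyme passed in this comparison, and 643 or 353 of all features did, in place of 3039. No enzyme passed in a fit to only the arrays compared either, where 1386 of all features did.

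In polysomal RNA of the same cultures, GLDP1 fell by 0.66 ± 0.20 (adjusted p = 0.0374) and was the 1 of 9 that did, against 3.96% of all features. GLDT stood at 12.98, 13.01 and 13.04 in light and at 12.55, 12.44 and 11.83 in darkness, a change of -0.74 ± 0.24 (adjusted p = 0.0558; 0.00605 with the block). GOX2 changed by -0.41 ± 0.14 (adjusted p = 0.0619; 0.0384 with the block). GLDP1 did not pass without culture 7 or without culture 8, where 680 or 211 of all features passed in place of 3385. In a fit to only the arrays compared no enzyme passed, and 1506 of all features did. The remaining 6 enzymes had changes from -0.34 to 0.13.

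In the presence of sucrose, 1 enzyme was higher and 3 were lower in darkness than in light in total RNA. These comparisons of dark and light arrays share their arrays with the sucrose comparisons above, so they are other views of the same values. GGAT1 was 2.04-fold higher in darkness than in light in total RNA (1.03 ± 0.16, adjusted p = 6.45e-05), with 1.07, 1.02 and 0.99 in the 3 cultures. It was the 1 member that rose, against 12.7% of all features, and 4.77% rose past 2-fold. The share of enzymes that rose was thus near the background. Under quantile normalization its rise was no longer more than 2-fold. GLDP1 fell by 0.83 ± 0.20, GLDT by 0.79 ± 0.24 and GOX2 by 0.55 ± 0.14 (adjusted p = 0.00354, 0.0186 and 0.00439), against 14.6% of all features that fell. The changes of AGT1, CAT2, GOX1, HPR1 and SHM1 lay between -0.28 and 0.02 and did not pass. Without culture 7, 2 enzymes fell, and without culture 8, 1 did. Of all features, 4294 and 4437 passed there, in place of 8298.

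In polysomal RNA with sucrose, GGAT1 alone rose in darkness (0.64 ± 0.16, adjusted p = 0.00456), against 13.4% of all features, again a share near the background. Of the others, 4 enzymes fell, against 15.1% of all features. GLDT fell by 1.02 ± 0.24 (2.03-fold lower, adjusted p = 0.00291) and GOX2 by 1.02 ± 0.14 (2.02-fold lower, adjusted p = 1.16e-05), and these 2 were called, against 3.45% that fell past 2-fold. The 3 cultures gave -0.83, -0.69 and -1.55 for GLDT and -0.61, -0.90 and -1.54 for GOX2, and without culture 9 neither was called (1 enzyme was without culture 7). GLDP1 fell by 0.81 ± 0.20 and HPR1 by 0.70 ± 0.25 (adjusted p = 0.0397). AGT1 changed by -0.71 ± 0.27 (adjusted p = 0.0522; 0.000923 with the block) and GOX1 by -0.43 ± 0.18 (adjusted p = 0.0749; 0.0103 with the block). CAT2 (-0.22 ± 0.19) and SHM1 (-0.14 ± 0.15) did not pass. Without culture 7 or without culture 8 the rise of GGAT1 did not pass, and 1 or 2 enzymes fell. Of all features, 4617 or 4772 passed there, in place of 8661. A fit to only the arrays compared left 3 enzymes that fell, and 6462 of all features passed.

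**Figure D3:**
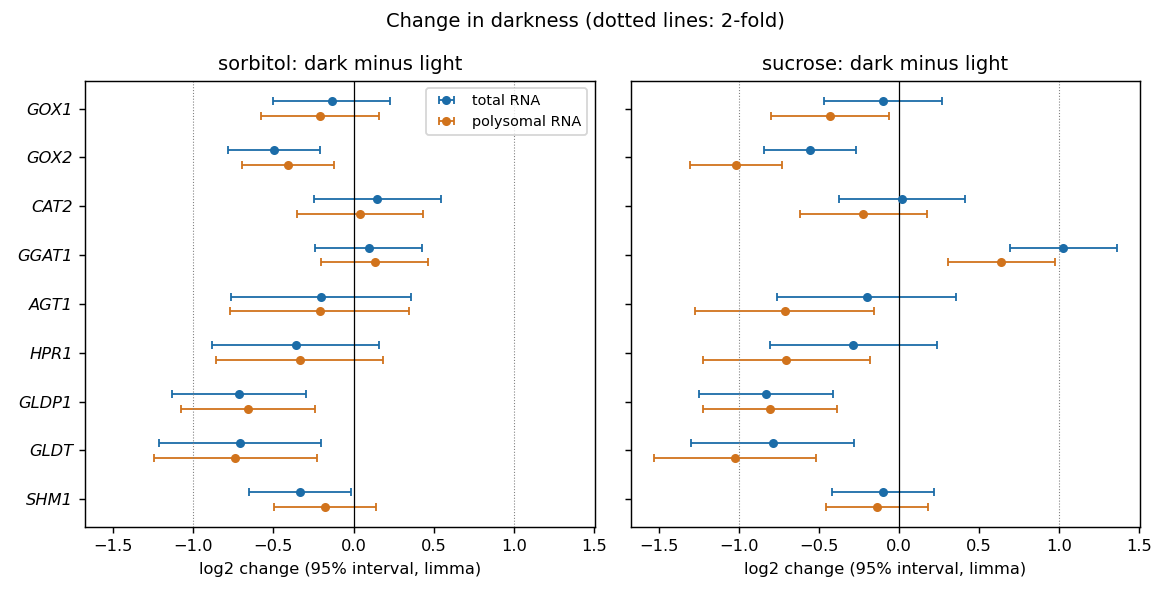
Log2 change in darkness (horizontal axis, dark minus light) for each enzyme with sorbitol (left) and with sucrose (right), in total (blue) and polysomal (orange) RNA. Points are fitted changes, bars 95% intervals and dotted lines 2-fold. GGAT1 is near 0 with sorbitol and at 1.03 (total) and 0.64 (polysomal) with sucrose, opposite in sign to GLDP1 and GLDT.

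By the form of their profiles over the 8 group means, the enzymes differed in how closely they followed the mean of the others. For that mean the members were centred but not scaled, so those with larger changes weighed more. The correlation of each with the mean of the remaining members was 0.998 for HPR1, 0.995 for GOX2, 0.977 for AGT1 and 0.974 for GOX1. It was 0.913 for CAT2, 0.842 for GLDP1, 0.822 for SHM1, 0.794 for GLDT and 0.554 for GGAT1. These are descriptions over 8 groups that come from 12 cultures, and total and polysomal RNA of a culture are not independent. Among pairs, GOX2 with HPR1 gave 0.994, AGT1 with HPR1 gave 0.992 and GLDP1 with GLDT gave 0.983. AGT1 gave 0.942 with CAT2 and 0.941 with GOX1. The lowest was GGAT1 with GLDT at 0.125. Of 8830 features with a mean above the median and a range over 1, those most like the mean of the 9 were AT3G19800 (r = 0.998), AT5G58330 (0.997), SHW1 (0.996), NPQ1 (0.995) and AT3G13510 (0.995), each over 8 groups. NPQ1, violaxanthin de-epoxidase of the xanthophyll cycle, changed by -2.59 in light and -2.25 in darkness after sucrose in total RNA.

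The enzymes that share a step or a family with the members did not all change in the members' direction. The other photorespiratory genes were listed by role, and 23 of 24 were found. After sucrose in light 4 of the 23 rose and 10 fell in total RNA, and in darkness 5 rose and 8 fell. Over all features, 12.8% fell in light and 16.2% in darkness. As 15.7% of all features rose in light and 15.5% in darkness, the shares that rose were near the background. Their median was -0.38 in light and -0.29 in darkness. Among the largest falls were GLU1, the ferredoxin-dependent glutamate synthase that recycles photorespiratory ammonium (-1.33 ± 0.21 and -0.65 ± 0.21 in light and darkness), GLYK, the glycerate kinase of the last step (-1.14 ± 0.14 in both), and GGAT2 (-1.25 ± 0.23 and -0.63 ± 0.23). GLDP2, the other P-protein gene, fell by 1.04 ± 0.21 and 1.25 ± 0.21. Rises were seen for GLDH2, an H-protein gene (0.93 ± 0.18 and 0.56 ± 0.18), BASS6, a transporter of glycolate (0.85 ± 0.14 and 0.42 ± 0.14), and mtLPD2, an L-protein gene (0.49 ± 0.18 and 1.07 ± 0.18).

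The families were set side by side in total RNA after their values had been seen. Among serine hydroxymethyltransferases, SHM1 fell in light while SHM2, also mitochondrial, rose (0.88 ± 0.14, adjusted p = 5.87e-05), as did the plastid SHM3 (0.78 ± 0.14) and the cytosolic SHM4 (1.34 ± 0.18, adjusted p = 8.23e-06). In darkness SHM2, SHM3 and SHM4 rose by 0.44, 0.47 and 1.15. Among glycolate oxidases, GOX3 stood at 0.18 ± 0.11 in light and rose by 0.61 ± 0.11 in darkness (adjusted p = 0.000184), where GOX1 and GOX2 fell. HAOX2, a relative of the glycolate oxidases, fell by 0.67 ± 0.17 in light (adjusted p = 0.00383) and fell by 1.12 ± 0.17 in darkness (adjusted p = 1.86e-05). HAOX1 (-0.19 and -0.09) and the phosphoglycolate phosphatase relative PGLP2 (0.21 and -0.30) did not pass in total RNA. In polysomal RNA both passed after sucrose in light, HAOX1 at -0.39 (adjusted p = 0.0118) and PGLP2 at 0.57 (adjusted p = 0.00287), and neither passed in darkness. The peroxisomal HPR1 fell more than 2-fold, while the values for HPR2, the cytosolic reductase, were 0.05 ± 0.11 in light and -0.24 ± 0.11 in darkness, and those for HPR3 were -0.13 ± 0.16 and -0.29 ± 0.16, none of which passed.

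The sucrose change of CAT3, another catalase, depended on light in total RNA. CAT3 fell by 0.88 ± 0.11 in light and fell by 2.41 ± 0.11 in darkness, a difference of -1.53 ± 0.15 (adjusted p = 3.00e-06). It was the 1 of the 23 other photorespiratory genes that passed the test of this difference, against 8.94% of all features. That share was not above the background. For CAT2 that difference was -0.13 ± 0.27 (adjusted p = 0.842). The sign for CAT3 was opposite to that for GGAT1 (0.93). For GGAT2 the difference was 0.62 ± 0.33 with the sign of GGAT1, and did not pass (adjusted p = 0.290; 0.0104 with the block).

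**Figure D4:**
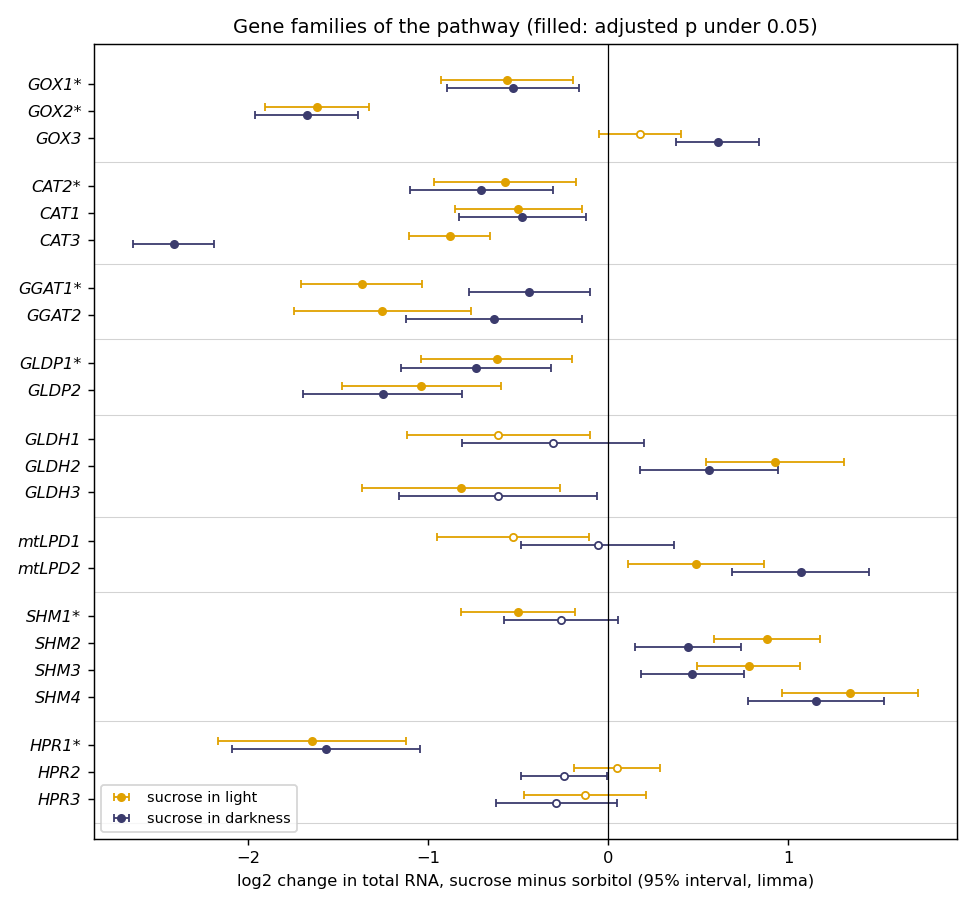
Log2 change in total RNA after sucrose (horizontal axis) for members (asterisks) and family relatives (vertical axis), in light (yellow) and darkness (dark blue). Points are fitted changes and bars 95% intervals, with filled points for an adjusted p under 0.05. SHM1 lies below 0 while SHM2, SHM3 and SHM4 lie above it.

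The Calvin-Benson cycle, which supplies Rubisco's substrate, moved in the same direction as the 9 enzymes after sucrose in total RNA. Of 19 genes listed, 13 fell in light and 9 in darkness in total RNA, with medians of -0.89 and -0.60, and none rose. Over all features, 12.8% fell in light and 16.2% in darkness. CP12-2, a regulator of the cycle, changed by -3.66 ± 0.39 and -3.50 ± 0.39, the small subunit gene RBCS2B by -1.85 ± 0.41 in light, and phosphoribulokinase PRK by -2.14 ± 0.24 in darkness. Peroxisomal enzymes outside the pathway gave 6 of 11 falling in light (median -0.42), and 2 rising and 3 falling in darkness (median -0.07). As 15.5% of all features rose in darkness, the share that rose was near the background. In polysomal RNA after sucrose in light, 7 of these 11 fell (median -0.66), as did 7 of the 19 Calvin-Benson genes (median -0.65). The 9 enzymes had a median of -0.72 there, and 12.8% of all features fell. ACX2, an acyl-CoA oxidase of fatty acid breakdown, changed by -1.45 ± 0.28 and the malate synthase MLS by -0.98 ± 0.12 in light. In darkness KAT2, a thiolase of the same breakdown, changed by -0.84 ± 0.19 and the citrate synthase CSY3 by -0.82 ± 0.11. No difference between the lists was tested.

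**Figure D5:**
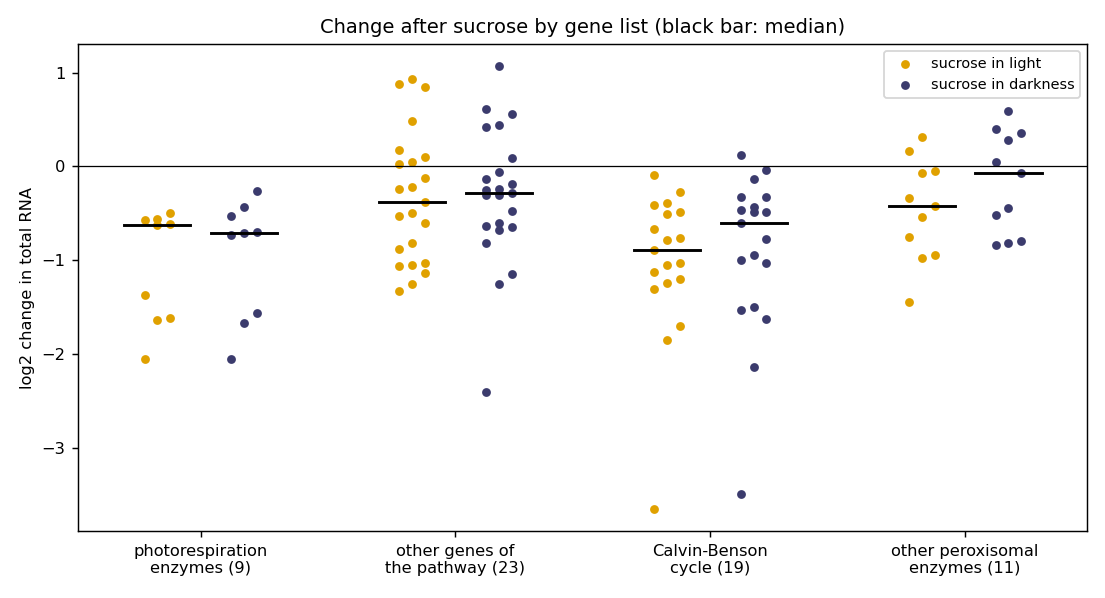
Log2 change in total RNA after sucrose (vertical axis) of each gene in 4 lists (horizontal axis), in light (yellow) and darkness (dark blue). Points are genes and black bars medians. All 9 photorespiration enzymes lie below 0 in both conditions, with medians of -0.63 and -0.71, while the other peroxisomal enzymes spread on both sides of 0 in darkness.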

How the data were processed

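Total RNA and small polysome RNA of 12 seedling cultures were measured on 24 AGRONOMICS1 tiling arrays. The authors deposited log2 values made with RMA in aroma.affymetrix, which corrects background, brings arrays to like distributions and combines the probes of a gene; non-polysomal arrays were left out. Array number limits the precision. The values were used as deposited, without 371 control rows. Values are thus relative to each array's other genes. The genome build was not given in the sources used here.

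The 8 groups were fitted together, 1 mean each, over 30386 features with limma 3.58.1 in R 4.3.3 (moderated variances, Benjamini-Hochberg adjustment within each comparison). Figures were drawn with matplotlib 3.10.9. An adjusted p under 0.05 passed the test; calls in total and polysomal RNA also needed more than 2-fold. The fit was tested on simulated arrays in which 200 of 30386 features were changed, in light sucrose total RNA only. Of 200 changed by 0.5 (log2), 47 were found in total RNA and 0 in occupancy. At 1.2 these were 181 and 153, and at 2 they were 199 and 189. Among the unchanged features 2 to 10 passed. A lack of passing occupancy changes thus cannot show that changes near 0.5 were absent. The simulated noise was independent between arrays, unlike that of total and polysomal arrays of a culture. Only 200 features were changed, while 28.5% of all features passed after sucrose in light in total RNA. The rates found need not hold for the real arrays.

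The rule covered all 10 loci in each comparison, and those with small occupancy or light-dependence changes are given by their range. Of the other lists, the rule named the 3 largest rises and falls of the pathway and the 2 largest changes of the Calvin-Benson and peroxisomal lists in total RNA after sucrose, and the 5 most alike features. The members and lists were chosen with earlier results of these data known. The methods text calls the 3 samples of a group biological replicates and does not say whether they were grown at separate times. The p-values rest on the spread between these samples. Deviations of same-numbered arrays correlated at 0.109 to 0.387 in all sucrose comparisons and at 0.100 to 0.366 in polysomal dark comparisons, but at 0.0147 to 0.305 in dark comparisons of total RNA. The alternatives were another set of arrays, 2 blocks, another prior, a filter, 2 normalizations, other fold thresholds and leaving out each replicate.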

Additional observations from a re-analysis of the deposited data

Results flagged for a closer look

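By the test of the difference itself, the sucrose change of 2 enzymes differed between light and darkness. These were 1 of 9 in total RNA, against 8.94% of all features, and 1 of 9 in polysomal RNA, against 11.5%. Both shares were near the background. For GGAT1 in total RNA the dark change was above the light change by 0.93 ± 0.23 (adjusted p = 0.0127), in 3 of 3 cultures, and the adjusted p ranged from 0.000400 to 0.199 over 10 alternatives, of which 8 kept it under 0.05. For GOX2 in polysomal RNA the dark change was below the light change by 0.61 ± 0.19 (-0.61, adjusted p = 0.0465), in 3 of 3 cultures, and the adjusted p ranged from 0.0236 to 0.246, with 6 of 10 alternatives under 0.05.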

How the results depend on the processing

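Over 10 alternatives and 76 changes of single enzymes (760 values: all changes in total and polysomal RNA, and those of occupancy and light dependence with an unadjusted p under 0.05), 634 stayed on the same side of the threshold, 70 lost it, 52 gained it and 4 changed sign, none of which had passed. CAT2 in darkness with sucrose in total RNA was at -0.0273 with quantile normalization and from -0.0294 (without replicate 8) to 0.0791 (without replicate 9). GGAT1 in darkness without sucrose in total RNA ranged from -0.0123 (without replicate 7) to 0.188 when a replicate was left out, and CAT2 in darkness without sucrose in polysomal RNA from -0.0854 (without replicate 7) to 0.121. Not counted here are the other occupancy changes, of which 2 of 9 in place of 8 were positive after sucrose in light with quantile normalization, and 4 in place of 0 in darkness without replicate 9. The cause was not tested.

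Without the 2-fold requirement the called members in total RNA numbered 8 for sucrose in light and 8 for sucrose in darkness. They numbered 2 for darkness without sucrose and 4 for darkness with sucrose. Over all features the shares were 28.5%, 31.7%, 10% and 27.3%. In polysomal RNA the called members were 8, 1 and 5 for sucrose in darkness, darkness without sucrose and darkness with sucrose. Over all features the shares there were 31.4%, 11.1% and 28.5%. At more than 1.5-fold the called members were 6, 1 and 3 in total RNA and 7, 1 and 5 in polysomal RNA. These are for sucrose in darkness and the 2 dark comparisons. Over all 30386 features the numbers were 6656, 1745 and 5384 in total RNA and 6494, 1804 and 5632 in polysomal RNA. Quantile normalization left 0 for darkness with sucrose in total RNA, beside 2526 called over all features. For the light dependence in polysomal RNA, the replicate block gave 2, beside 5397 over all features. A fit to only the arrays compared gave 0, beside 2347. Leaving out a replicate gave 0 to 2 for darkness with sucrose in polysomal RNA. It gave 0 to 1 for the light dependence in total RNA and 0 in each case in polysomal RNA. For that light dependence, 397 or 335 features passed in total RNA without replicate 7 or 8, and 483 or 450 in polysomal RNA. Without replicate 9 the numbers were 4467 and 4620, and with all arrays 2716 and 3507. The 2-fold calls after sucrose were otherwise within 1.5 times of the reported counts. The replicate block, which pairs cultures by number, is printed beside each enzyme whose call it changed in the comparisons where the numbers correlated. In darkness without sucrose in total RNA, where the deviations correlated at 0.0147, 0.136 and 0.296, the block gave 4 passing members in place of 2. Over all features it gave 4959 in place of 3039. The 3 arrays per group limit what could be detected, most of all for occupancy, where standard errors were 0.19 to 0.38.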
